A study of Mus musculus with 8 samples.

Results

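RNA polymerase II phosphorylated on serine 5 (Ser5P) was compared with polymerase phosphorylated on serine 2 (Ser2P) in control MEL cells, a mouse erythroleukaemia line that grows as immature erythroid cells. The comparison rests on 4 of the 8 libraries of the study, 2 for each mark, chosen by their labels alone. Peaks were mapped by CUT&Tag, in which a transposase is guided by the antibody and inserts sequencing adapters into the chromatin around the bound protein. The antibodies were clone D9N5I for Ser5P and clone E1Z3G for Ser2P, and each replicate took an equal number of cells. The labels give the genotype of these cells as dCAS control, so both marks were measured in 1 line. No library without an antibody or with an antibody to unphosphorylated polymerase was used here. The other 4 libraries, from the line labelled Myrlin KD, carry the same 2 antibodies and serve only as a second set in which an order of the marks can be read again. Myrlin is an enhancer transcript of Myb. The labels do not say whether replicates came from separate cultures, so a p-value here measures a spread over libraries that may be technical only.

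The largest subunit of polymerase II, Rpb1, ends in a tail of repeated heptads whose serines are phosphorylated as transcription proceeds. Serine 5 is phosphorylated around initiation by Cdk7, a subunit of TFIIH, and polymerase that pauses just past the start carries this mark. Serine 2 is phosphorylated by Cdk9 and by Cdk12 and Cdk13 during elongation, and the mark accumulates toward the 3′ end of genes, where it helps to recruit the factors that cleave and terminate the transcript.

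The Ser5P lists held 23964 and 25441 peaks and the Ser2P lists 30286 and 20793 peaks. Relative depth, read from the background pileup of each list, was 0.566 and 0.638 for Ser5P and 0.782 and 0.440 for Ser2P. The first Ser2P library was therefore the deepest of the 4 and the second the shallowest, and Ser5P lay between them. Base for base, the Ser5P replicates shared 0.558 of the bases that either covered. The Ser2P replicates shared 0.440, within the 0.423 to 0.489 of the 4 pairs of unlike marks, so the Ser2P replicates were no more alike than libraries of different marks. With 2 libraries against 2 the smallest two-sided exact permutation p is 0.333, and no value per library could pass a threshold of 0.05. A difference is described below by whether the 2 pairs of libraries overlap.

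The erythroid label was checked against marker genes. Of 14 erythroid transcription factor genes, 9 carried a promoter peak in all 4 libraries and 13 an interior peak in all 4, against 21.4% of all genes tested for an interior. Of 20 genes each in the lists of lymphoid, myeloid and non-haematopoietic markers, 0, 0 and 1 had a promoter peak in all 4, against 35.6% of all 21535 protein-coding genes. Their interiors were joint at 5 of 20 lymphoid, 2 of 16 myeloid and 1 of 19 non-haematopoietic genes. The globin promoters were largely without peaks. At Hbb-bs, the adult beta globin, Ser5P covered 456 and 454 bp and Ser2P 276 and 0 bp of the promoter window, and Hba-a2 had 0 bp in every library. Some globin genes are near-identical copies, and the handling of reads that match several copies is not given in the sources used here.

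Most promoters with a peak carried both marks in all 4 libraries. A small minority of sites had a peak in both libraries of 1 mark and in neither of the other. Merging the 4 lists gave 41720 regions, of which 13718 (32.9%) had a peak in all 4 libraries and are called joint. Ser5P-only regions, with a peak in both Ser5P and neither Ser2P library, numbered 1433 (3.43%). Ser2P-only regions, in the reverse sense, numbered 1232 (2.95%). The remaining 25337 (60.7%) were split in other ways. Of these, 16881 had a peak in 1 library only and were not counted as single-mark, and 7571 of them appeared in the deepest library alone.

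Joint regions lay nearest to gene starts. A region counts as promoter when it lies within 1000 bp of the 5′ end of a gene, and 47.5% of joint regions did. Of Ser5P-only regions 14.1% were at promoters and of Ser2P-only regions 8.85%. Past the 3′ end, within 3000 bp, the order was reversed, with 3.91% of Ser5P-only and 8.77% of Ser2P-only regions. Gene interiors held 44.9% of the Ser5P-only and 52.0% of the Ser2P-only regions. The median distance to the nearest 5′ end was 14493 bp for Ser5P-only and 24009.5 bp for Ser2P-only regions, against 1484 bp for joint regions.

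The 3 joint regions with the highest smallest fold enrichment over the 4 lists were all in gene interiors. They lay in Lars2, which encodes mitochondrial leucyl-tRNA synthetase (chr9:123461792-123462201), in the kinase gene Camk1d (chr2:5379040-5379398) and in Cntnap5b (chr1:100180097-100180427). The authors' fold at the Lars2 region was 35.6 and 35.5 for Ser5P and 36.4 and 38.4 for Ser2P. At Cntnap5b it was 29.5 and 29.5 for Ser5P and 30.1 and 28.7 for Ser2P, while its promoter had no peak in any library. These sites were thus as strong with either antibody, and all 3 were joint in the Myrlin KD libraries. Without a library lacking an antibody, signal that does not depend on the antibody was not tested at them. Of the 3 strongest Ser5P-only regions, all intergenic, chr8:52336736-52337081 was again Ser5P-only in the Myrlin KD libraries. The strongest Ser2P-only region at a promoter, chr12:24571496-24572328, lies at Grhl1, a gene for an epithelial transcription factor.

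The share of each list at promoters did not separate the marks. Promoter summits made up 33.2 and 31.7% of the Ser5P lists and 27.4 and 35.4% of the Ser2P lists. Interior summits, from 1000 bp inside the 5′ end to the 3′ end, made up 41.5 and 42.3% for Ser5P and 45.9 and 40.4% for Ser2P. For both shares the Ser5P values fell between the 2 Ser2P values. The mean promoter share was 32.5% ± 1.06 for Ser5P and 31.4% ± 5.68 for Ser2P (SD, n = 2 each, two-sided exact permutation p = 1). This difference, 1.08 percentage points, changed sign without the deeper Ser2P library, to -2.94. Past the 3′ end the full lists did separate, with 3.61 and 3.71% of Ser5P summits against 4.65 and 3.89% of Ser2P summits. At a −log10 q of at least 5 this difference shrank from -0.606 to -0.310 percentage points, and the pairs overlapped.

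**Figure D1:**
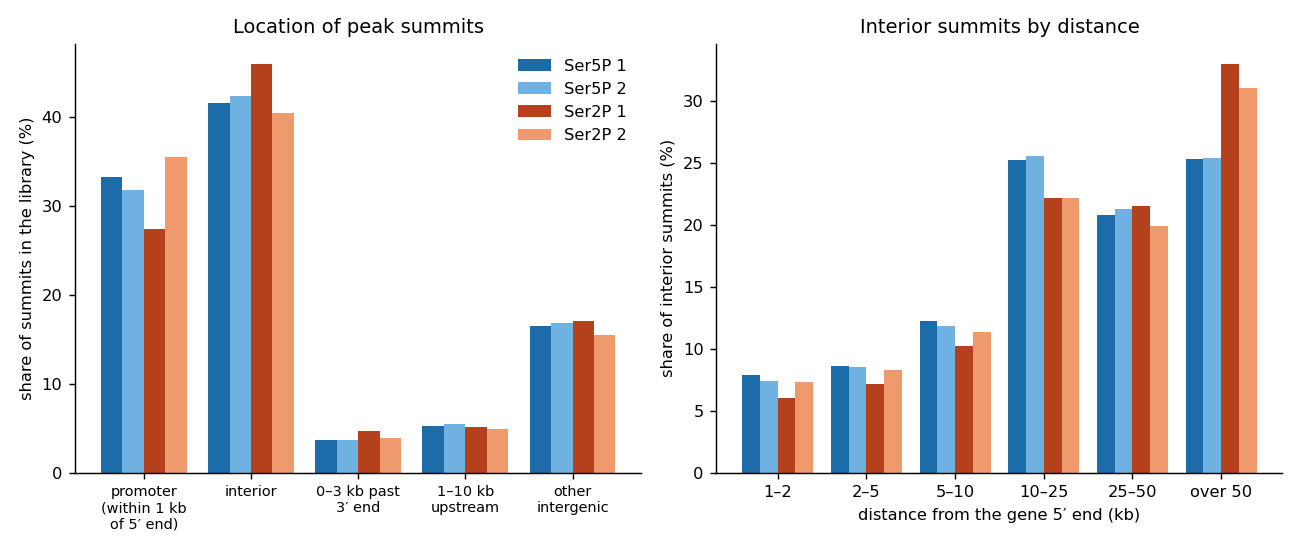
Left, share of peak summits by location in each control library (bars, in percent of the list). Right, interior summits by distance from the gene 5′ end. The Ser5P promoter shares (33.2 and 31.7%) lie between those of Ser2P (27.4 and 35.4%), while beyond 50 kb both Ser2P bars stand above both Ser5P bars.

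Within genes Ser2P reached deeper. Of the interior summits, 25.3 and 25.4% lay more than 50 kb from the 5′ end for Ser5P, and 32.9 and 31.0% for Ser2P. The means were 25.3% ± 0.0723 and 32.0% ± 1.37 (SD, n = 2 each), and the 2 pairs did not overlap (two-sided exact permutation p = 0.333). The median interior summit was 22048 and 22575 bp from the 5′ end for Ser5P and 28750 and 25684.5 bp for Ser2P. Between 10 and 25 kb the order was opposite, with 25.2 and 25.6% for Ser5P and 22.2 and 22.1% for Ser2P.

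Scaled to gene length Ser2P summits again lay further along. In genes of 10000 bp or more cut into 5 equal parts, the first part held 22.8 and 22.6% of Ser5P and 18.5 and 21.5% of Ser2P interior summits. The last part held 20.6 and 20.9% of Ser5P and 24.7 and 22.3% of Ser2P summits. Measured in bp from the 3′ end, Ser2P summits were not nearer to it: the median interior summit lay 23269 and 23086 bp before it for Ser5P and 23425 and 24544 bp for Ser2P. Within 1000 bp of the 3′ end lay 3.15 and 3.23% of Ser5P and 3.14 and 2.88% of Ser2P interior summits. In the Myrlin KD libraries the shares beyond 50 kb were 23.9 and 24.8% for Ser5P and 33.1 and 32.7% for Ser2P. Depth differed by mark in that line, since its Ser2P libraries (1.12 and 1.03) were deeper than its Ser5P libraries (0.650 and 0.841), whereas in the control line it did not.

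Along long genes the 2 marks differed in opposite directions. The 639 genes of at least 100 kb with a promoter peak in all 4 libraries had a median length of 147 kb. Between 1 and 10 kb from the 5′ end, peaks covered 8.58 and 10.3 bp per kb for Ser5P and 8.75 and 4.82 bp per kb for Ser2P. In the last 10 kb before the 3′ end they covered 5.49 and 6.72 bp per kb for Ser5P and 12.7 and 6.05 bp per kb for Ser2P. Ser5P cover was thus lower at the end of these genes than near the start in both libraries, and Ser2P cover was higher in both.

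Relative to the stretch from 1 to 10 kb, cover between 50 and 100 kb was 70.5 and 63.0% for Ser5P and 112 and 108% for Ser2P. In the last 10 kb it was 64.0 and 65.0% for Ser5P and 146 and 125% for Ser2P, with means of 64.5% ± 0.683 and 136% ± 14.3 (SD, n = 2 each, two-sided exact permutation p = 0.333). The pairs did not overlap in either stretch. With all peaks counted, cover of both marks was highest in the 10 kb past the 3′ end, at 175 and 156% for Ser5P and 336 and 362% for Ser2P.

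This order was also present in the other line and away from other gene starts. In the Myrlin KD libraries the last 10 kb had 57.8 and 64.0% for Ser5P and 148 and 137% for Ser2P. With peaks near any listed gene start left out, an alternative added after seeing the data, the last 10 kb of the control genes had 110 and 107% for Ser5P and 278 and 197% for Ser2P. Past the 3′ end the same filter left 157 and 140% for Ser5P and 462 and 355% for Ser2P. Ser5P therefore no longer fell below its first stretch there, while it stayed below Ser2P. Under this filter Ser5P cover was highest between 10 and 25 kb, at 172 and 158%, and only Ser2P was highest past the 3′ end.

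**Figure D2:**
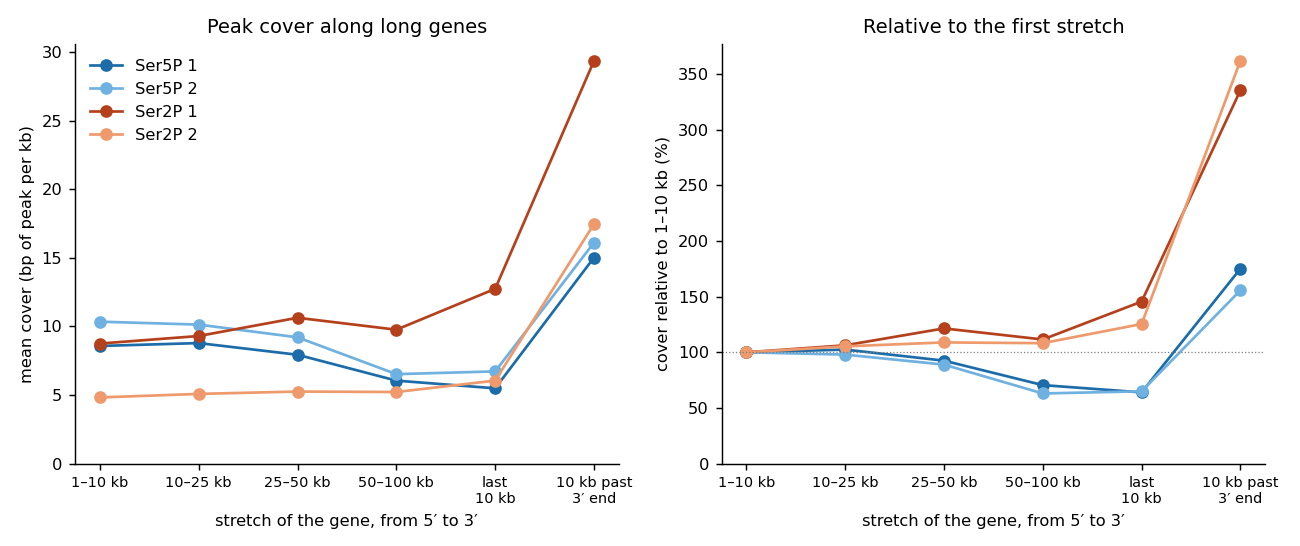
Mean peak cover along 639 genes of at least 100 kb, in bp of peak per kb (left) and as a percentage of the stretch from 1 to 10 kb (right), 1 line per control library. On the right both Ser5P lines fall to 64.0 and 65.0% in the last 10 kb, while the Ser2P lines reach 146 and 125%.

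Around the start, cover of both marks peaked within 100 bp of the 5′ end, and Ser5P cover was higher upstream. The bins of 100 bp just before and just after the 5′ end differed little. They held 78.1 and 78.0% in the first Ser5P library and 78.3 and 77.2% in the second. In the first Ser2P library they held 79.1 and 80.1%, and in the second 71.6 and 71.9%. In 4207 genes of at least 10000 bp with a promoter peak in all 4 libraries, cover peaked at 78.1 and 78.3% of genes for Ser5P and 80.1 and 71.9% for Ser2P. Between 400 and 500 bp upstream of the 5′ end it was 26.6 and 29.5% for Ser5P and 23.2 and 15.8% for Ser2P. Mean cover over the 1000 bp upstream was 31.5 and 33.1% for Ser5P and 30.3 and 24.5% for Ser2P, and in neither did the pairs overlap (two-sided exact permutation p = 0.333). Over the 1000 bp downstream they overlapped, at 41.0 and 42.2% against 41.3 and 32.1%. Summits were compared at 5350 promoters with a summit in all 4 libraries and a window that touched no other promoter window. In each library the summit of highest fold in the window was taken. Its median position was 6 and 5 bp downstream of the 5′ end for Ser5P and 5 and 1 bp for Ser2P. The median distance between the summits of 2 libraries at 1 promoter was 46.5 bp for the Ser5P pair, 52 bp for the Ser2P pair and 49 to 59 bp for pairs of unlike marks. Pairs of unlike marks thus overlapped in this distance with pairs of like marks, and the 2 largest distances both involved the shallowest library. Across these genes the cover in the 3000 bp past the 3′ end was 3.24 and 3.62% of bases for Ser5P and 4.72 and 2.70% for Ser2P, against 1.20, 1.47, 1.61 and 0.760% in the last 3000 bp of the gene. All 4 libraries rose past the 3′ end, and in cover not scaled to the start the marks overlapped.

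**Figure D3:**
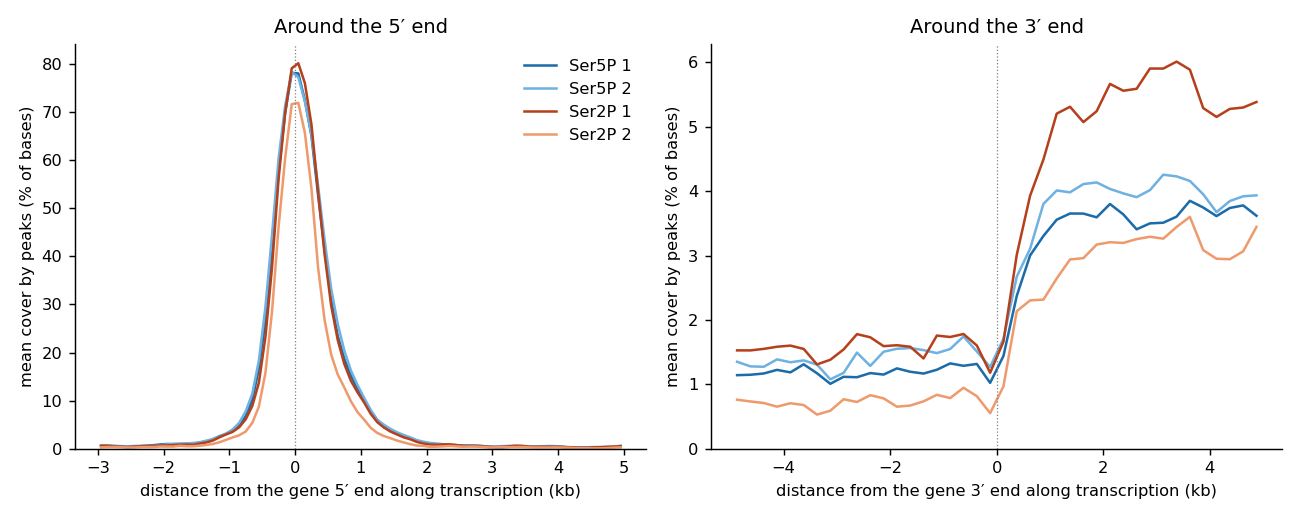
Mean share of bases covered by peaks against distance from the gene 5′ end (left) and 3′ end (right), in kb along transcription, in 4207 genes, 1 line per control library. All 4 lines peak within 100 bp of the 5′ end, at 71.9 to 80.1%, with both Ser5P lines above both Ser2P lines 400 to 500 bp upstream, and all rise past the 3′ end, where the 2 Ser2P libraries (4.72 and 2.70% over 3000 bp) lie on either side of the Ser5P libraries.

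Ser5P peaks were wider. The median width was 486 and 497 bp for Ser5P and 428 and 381 bp for Ser2P. Peaks over 1000 bp made up 8.70 and 9.72% of the Ser5P lists and 5.89 and 2.50% of the Ser2P lists. At promoters the medians were 675 and 692 bp for Ser5P and 645 and 522 bp for Ser2P. The deepest library, a Ser2P library, had narrower peaks than both shallower Ser5P libraries. In the Myrlin KD libraries the median over all peaks was 533.5 and 532 bp for Ser5P and 478 and 479 bp for Ser2P. At promoters the marks overlapped in that line, with 728 and 760 bp for Ser5P and 759 and 731 bp for Ser2P, and its Ser2P libraries were the deeper ones.

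At matched sites the gap did not close. In the 12814 joint regions with a single peak in each library, the median width was 629 and 658 bp for Ser5P and 619 and 476 bp for Ser2P (means 643.5 ± 20.5 and 547.5 ± 101 bp, SD, n = 2 each, two-sided exact permutation p = 0.333). The difference in means was 96 bp there and 87 bp over all peaks. The first Ser2P library was within 10 bp of the narrower Ser5P library, and the second lay far below both. Leaving out 1 library moved the matched difference between 28.5 bp, without the second Ser2P library, and 170.5 bp, without the first. Width moved with depth within each mark, and the part of depth in this difference was not tested.

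**Figure D4:**
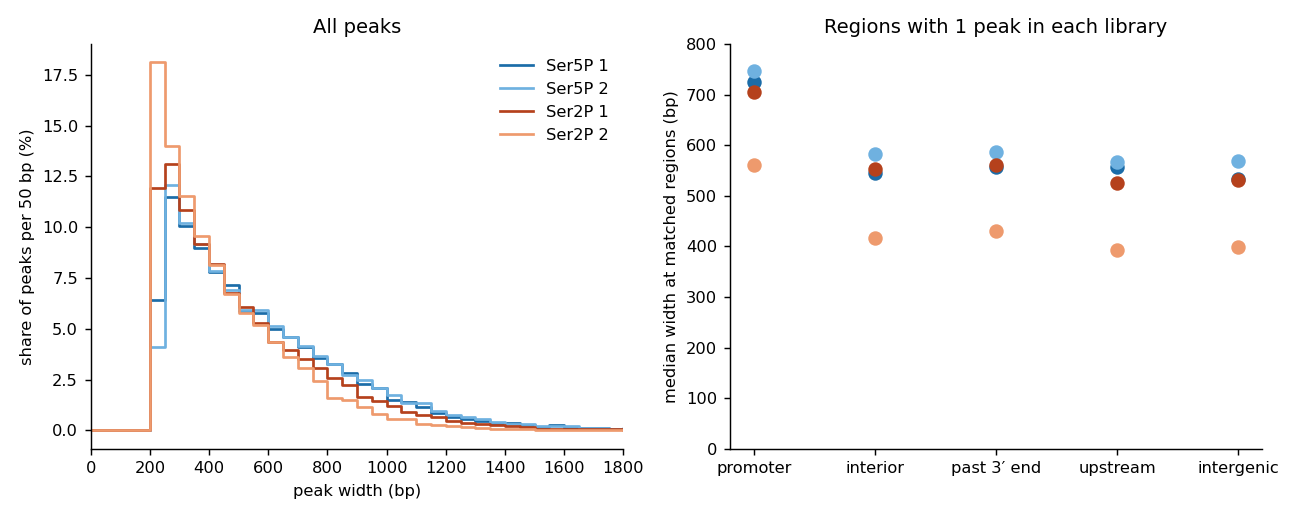
Left, distribution of peak widths in each control library (percent of peaks per 50 bp of width). Right, median width in bp at the regions with 1 peak in every library, by location. The second Ser2P library, with an overall matched median of 476 bp, lies lowest everywhere, and the first (619 bp) lies close to Ser5P.

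Genes were sorted by the marks on their promoter window, 1000 bp each side of the 5′ end. All 4 libraries had a peak at 7667 of 21535 genes (35.6%), both Ser5P libraries alone at 177 (0.822%) and both Ser2P libraries alone at 89 (0.413%). In number of bases covered, both Ser5P libraries exceeded both Ser2P libraries at 3451 genes (16.0%), and the reverse held at 652 (3.03%). Among the 9864 genes with a promoter peak in at least 1 library these shares were 35.0% and 6.61%. limma on the covered share called 0 genes in either direction at an adjusted p of 0.05 (0%). At an unadjusted p of 0.05 it found 890 genes with more Ser5P and 143 with more Ser2P. In simulated data with the measured spread it recovered 0 of 200 genes shifted by 0.4 of the window, so at this replication it could not show such a shift.

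The replication-dependent histone genes stood at the Ser5P end. These genes supply the nucleosomes of replicating DNA, and their transcripts end in a stem-loop in place of a poly(A) tail. At all 20 genes of the list both Ser5P libraries covered more of the promoter window than both Ser2P libraries, against 16.0% of all genes and 35.0% of genes with a peak. Only 2 of the 20 are long enough to be tested for an interior. At the others the promoter window spans the whole gene and reaches past its 3′ end. Cover there is thus not cover of the start alone, unlike in longer genes. A Ser5P peak was present at 20 and 20 of the 20 promoters and a Ser2P peak at 15 and 10. The median cover was 1084.5 and 1060.5 bp for Ser5P and 329.5 and 103 bp for Ser2P. In the Myrlin KD libraries the same order held at 20 of 20, where it held at 8.21% of all genes and the Ser2P libraries were the deeper ones.

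Histone genes of every class took part. The Ser5P-only promoters in the list were H2ac4, H3c4, H4c2 and H4c8. H2ac4 (chr13:23751088-23751592), which encodes a core histone H2A, had 783 and 874 bp of Ser5P and 0 and 0 bp of Ser2P. H4c8, for histone H4, had 895 and 858 bp of Ser5P and again no Ser2P peak. At the linker histone gene H1f5 Ser5P covered 1076 and 1076 bp and Ser2P 228 and 0 bp. The marks came closest at H1f2, with 1090 and 1097 bp of Ser5P and 1033 and 803 bp of Ser2P. All 20 genes lie on chromosome 13, and neighbouring windows can share peaks: the divergent pair H2ac6 and H2bc4 has identical values. The genes are close copies of each other, so the assignment of reads between them may be uncertain.

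The strongest Ser5P-only promoters of the whole genome included 3 further histone genes outside the list. H3c6 had 752 and 658 bp of Ser5P, H3c10 had 781 and 730 bp and H4c18 had 353 and 907 bp, all with 0 bp of Ser2P in both libraries. Of these, H3c10 and H4c18 were Ser5P-only in the Myrlin KD libraries too, while H3c6 carried both marks there. The 3′ window of H4c18 was also Ser5P-only, with 981 and 1398 bp, as was that of H1f3 with 492 and 581 bp. These genes are 406 and 776 bp long, so the 3′ window of each overlaps its promoter window. At H4c18 the highest Ser5P folds were the same in both windows (7.19 and 8.36), so the 2 windows are not independent. Both 3′ windows carried both marks in the Myrlin KD libraries.

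The sequences just upstream of 3 Ser5P-only histone genes and of 2 Ser2P-only genes are shown because they carried 1 mark alone, and were picked after their values were seen. They are the 150 bases before the RefSeq start on GRCm38.p6, read along transcription, with every CCAAT and TATAAA on either strand in capitals. H2ac4 lies at chr13:23750938-23751087, H3c4 at chr13:23575613-23575762 and H3c10 at chr13:21717478-21717627, all on the plus strand. Slc35g1, a transporter-family gene, lies at chr19:38395830-38395979 and Phlda3, a p53 target, at chr1:135765935-135766084, both on the plus strand.
H2ac4: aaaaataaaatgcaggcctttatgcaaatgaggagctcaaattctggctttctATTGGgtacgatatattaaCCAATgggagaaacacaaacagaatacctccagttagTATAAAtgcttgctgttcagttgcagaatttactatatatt
H3c4: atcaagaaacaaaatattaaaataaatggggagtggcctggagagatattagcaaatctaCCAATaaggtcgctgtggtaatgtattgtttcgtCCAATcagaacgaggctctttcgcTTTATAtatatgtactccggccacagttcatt
H3c10: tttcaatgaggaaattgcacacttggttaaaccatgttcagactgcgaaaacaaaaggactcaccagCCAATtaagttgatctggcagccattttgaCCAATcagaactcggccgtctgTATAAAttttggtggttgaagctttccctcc
Slc35g1: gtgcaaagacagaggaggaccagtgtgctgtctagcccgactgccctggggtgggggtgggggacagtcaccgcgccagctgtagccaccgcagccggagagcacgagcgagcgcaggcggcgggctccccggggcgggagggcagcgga
Phlda3: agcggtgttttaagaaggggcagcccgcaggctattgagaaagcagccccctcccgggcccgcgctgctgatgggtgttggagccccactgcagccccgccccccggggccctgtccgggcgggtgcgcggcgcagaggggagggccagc

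The 3 histone stretches hold 34, 38 and 42.7% G and C, against 72.7% at Slc35g1 and 73.3% at Phlda3. Of the 17 listed histone genes with a promoter in the RefSeq table, 15 (88.2%) hold CCAAT and 11 (64.7%) hold TATAAA in the 250 bases upstream, searched on both strands. Over all 10583 promoters compared the shares were 37.4% for CCAAT and 15.7% for TATAAA. By class, TATAAA was present at 18.5% of 81 Ser5P-only, 5.56% of 36 Ser2P-only and 6.03% of 3550 joint promoters, and at 22.1% of promoters with no peak. Median G and C content was 61% at joint, 53% at Ser5P-only and 57.7% at Ser2P-only promoters. These matches describe letters and not bound sites.

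In 3 other lists more Ser5P than Ser2P at the promoter was also frequent, against 16.0% of all genes, 35.0% of genes with a peak, and 3.03% of all genes for the reverse. Among 31 immediate-early and heat-shock genes, 18 (58.1%) had more Ser5P in both libraries and 0 more Ser2P. At Ier2 Ser5P covered 1459 and 1445 bp and Ser2P 415 and 474 bp. At Dusp1, a MAP kinase phosphatase gene, the values were 1360 and 1360 bp against 788 and 386 bp. Fosb, an AP-1 subunit gene, and Ier3 were Ser5P-only, with 410 and 372 bp and with 694 and 661 bp of Ser5P. The heat-shock genes Hsp90ab1 and Dnajb1 overlapped between marks, Dnajb1 having 1033 and 1054 bp of Ser5P and 1060 and 871 bp of Ser2P.

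Among 45 genes of cytosolic ribosomal proteins, 27 (60%) had more Ser5P in both libraries and 1 had more Ser2P. Rpl6, Rpl8 and Rps9 were Ser5P-only, Rpl6 with 744 and 364 bp. At Rpl37, which encodes a large-subunit protein, Ser5P covered 1009 and 820 bp and Ser2P 500 and 401 bp. Of the 9 enzymes of haem synthesis 5 (55.6%) had more Ser5P and 0 more Ser2P. Urod, for uroporphyrinogen decarboxylase, was Ser5P-only with 444 and 1291 bp, and at Cpox, for coproporphyrinogen oxidase, Ser5P covered 654 and 738 bp and Ser2P 572 and 588 bp. The other lists with erythroid or transcription genes had more Ser5P at 4 of 14 erythroid transcription factors (28.6%), 3 of 19 globin and red-cell genes (15.8%), 7 of 20 kinases and phosphatases of the polymerase tail (35%), 9 of 24 pausing and elongation factors (37.5%) and 4 of 19 cleavage and termination factors (21.1%).

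The same 3 lists were counted in the Myrlin KD libraries, where 8.21% of all genes had more Ser5P and 9.89% more Ser2P in both libraries. There 13 of 31 immediate-early and heat-shock genes had more Ser5P and 2 more Ser2P, 14 and 5 of 45 ribosomal protein genes did, and 2 and 0 of the 9 haem genes. The marks overlapped at Ier2 (1453 and 1036 bp of Ser5P, 854 and 1098 bp of Ser2P), and likewise at Dusp1, Rpl37 and Cpox.

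**Figure D5:**
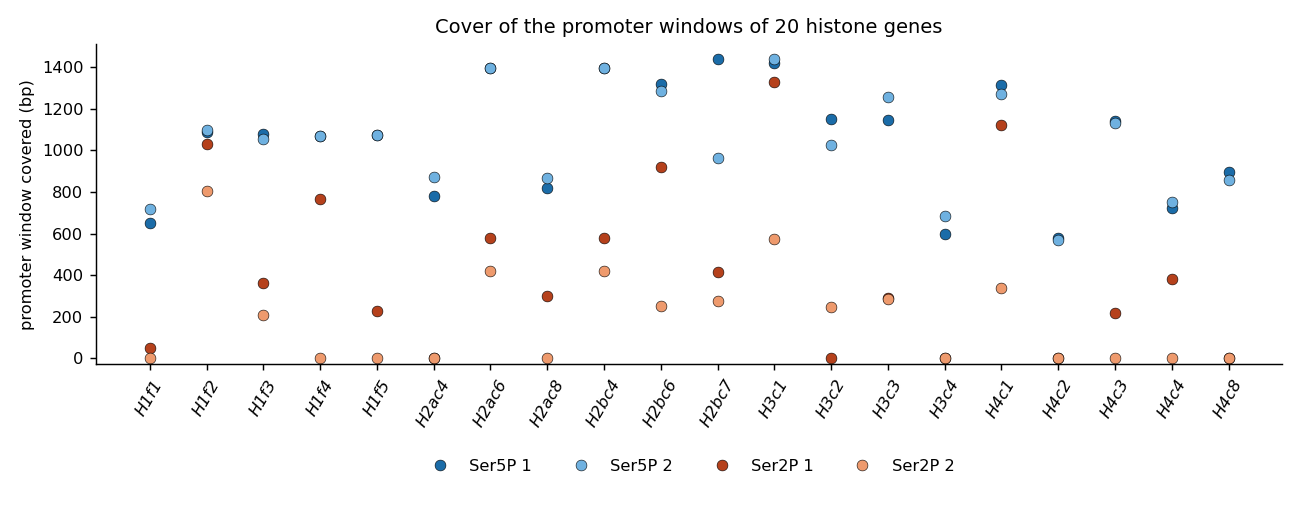
Promoter window covered by peaks (bp) at 20 replication-dependent histone genes, 1 point per control library. At every gene both Ser5P points lie above both Ser2P points, with no Ser2P peak at H4c8 (895 and 858 bp against 0 and 0 bp) and a narrow gap at H1f2.

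Single genes outside these lists carried 1 mark at the promoter. Among the strongest Ser5P-only promoters were Tnfrsf22, a decoy receptor gene (566 and 741 bp), Rnf145, a ubiquitin ligase gene (232 and 542 bp), and the interferon-induced antiviral gene Rsad2 (640 and 626 bp). Rsad2 was again Ser5P-only in the Myrlin KD libraries, with 312 and 452 bp. The strongest Ser2P-only promoter was Grhl1, with 833 and 208 bp of Ser2P. It was followed by Ess2 (253 and 350 bp), Grsf1, for an RNA-binding protein of mitochondria (375 and 245 bp), and Hace1, for a ubiquitin ligase (262 and 380 bp). Slc35g1 had 276 and 214 bp of Ser2P, and 258 and 243 bp with no Ser5P in the Myrlin KD libraries.

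The single-mark promoter calls recurred in part in the other line. Of the 177 Ser5P-only promoters, 26 were Ser5P-only and 6 Ser2P-only in the Myrlin KD libraries. Of the 89 Ser2P-only promoters, 20 were Ser2P-only and 0 Ser5P-only there. Over all genes these classes made up 0.330% and 1.01% in that line. Most single-mark promoters became split or joint.

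In gene interiors 4064 of 19028 genes of at least 2000 bp (21.4%) carried a peak in all 4 libraries, 256 (1.35%) were Ser5P-only and 230 (1.21%) Ser2P-only. Cover was higher in both Ser5P libraries at 1727 genes (9.08%) and in both Ser2P libraries at 709 (3.73%), or 20.2% and 8.30% of the 8539 genes with an interior peak in at least 1 library. limma called 0 genes in either direction (0%), with 429 and 118 at an unadjusted p of 0.05. Ser5P-only interiors belonged to shorter genes, with a median length of 20.3 kb against 38.7 kb for Ser2P-only interiors. In genes of 10 to 25 kb there were 102 Ser5P-only and 56 Ser2P-only interiors, and in genes over 100 kb 16 and 48.

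Of the 14 erythroid transcription factor genes 13 carried both marks in the interior, with cover that varied widely. The median over the list was 1022.5 and 1125.5 bp for Ser5P and 1253 and 664 bp for Ser2P. Over all joint interiors it was 826.5 and 918 bp for Ser5P and 957 and 581 bp for Ser2P. Klf1 had 448 and 463 bp of Ser5P and 480 and 212 bp of Ser2P. In Runx1, for a regulator of blood stem cells, Ser5P covered 3845 and 3955 bp and Ser2P 8202 and 4656 bp of the interior, and its outer promoter had no peak. Zfpm1, for a cofactor of GATA1, had 6527 and 6637 bp of Ser5P and 9850 and 3760 bp of Ser2P. Gata1 itself had 1203 and 1112 bp of Ser5P against 1009 and 624 bp of Ser2P. Runx1 was the only one of the 14 factors with more Ser2P in both libraries, 5 had more Ser5P and the other 8 overlapped. Myb, the gene near the Myrlin enhancer, had 582 and 998 bp of Ser5P and 1527 and 0 bp of Ser2P.

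Of the 230 Ser2P-only interiors 134 belonged to genes whose promoter carried both marks, as did 138 of the 256 Ser5P-only interiors. The same held for 7460 of all 19028 genes tested and for 2066 of the 4064 joint interiors. In Zcchc7, for a zinc-finger protein of RNA surveillance, Ser2P covered 1490 and 487 bp, and in Tmcc1 1006 and 601 bp. In Arhgap15, a GTPase regulator gene of 647156 bp, it covered 352 and 481 bp, and this interior was Ser2P-only in the Myrlin KD libraries too. Bckdhb, which acts in the breakdown of branched-chain amino acids, had 618 and 610 bp, but 0 and 0 bp of Ser2P in the other line. Ccnt1, for the cyclin partner of Cdk9, had 273 and 239 bp of Ser2P and none of Ser5P in its interior. Ctdsp2, for a phosphatase of the polymerase tail, had 222 and 224 bp, and Cstf1, for a cleavage stimulation factor, 224 and 204 bp.

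Another 69 Ser5P-only and 67 Ser2P-only interiors belonged to genes without a promoter peak. So did 9479 of all 19028 genes tested and 1361 of the 4064 joint interiors. Trim71, for an RNA-binding protein of stem cells, had 685 and 557 bp of Ser5P in its interior, and Robo3, for an axon guidance receptor, 643 and 322 bp. Neither had a promoter peak in any of the 4 libraries. Dync1li2, for a dynein light intermediate chain, had 626 and 563 bp beside a promoter with both marks, and Xrn1, for the cytoplasmic 5′ exonuclease, 388 and 853 bp. Trim71 stayed Ser5P-only in the Myrlin KD libraries with 595 and 625 bp, whereas Xrn1 carried both marks there. Across all 230 Ser2P-only interiors, 46 were Ser2P-only and 2 Ser5P-only in the other line. For the 256 Ser5P-only interiors these numbers were 13 and 17. Over all genes tested in that line 2.97% were Ser2P-only, 0.657% Ser5P-only and 23.3% joint, and its Ser2P libraries were the deeper ones.

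Past the 3′ end the order of the single-mark counts depended on the settings. Of 18891 genes with a window free of other promoters, 559 (2.96%) carried both marks in the 3000 bp past the 3′ end, 74 (0.392%) were Ser5P-only and 144 (0.762%) Ser2P-only. The excess of Ser2P-only genes was absent at a −log10 q of at least 5 (63 Ser2P-only and 66 Ser5P-only) and in a window of 1000 bp (47 and 51). Without the first Ser5P library there were 216 Ser2P-only and 339 Ser5P-only genes, and without the second 238 of each. In bases covered, both Ser5P libraries were higher at 336 genes (1.78%) and both Ser2P libraries at 243 (1.29%), or 12.5% and 9.06% of the 2681 genes with a peak there. limma called 0 genes in either direction (0%), with 105 and 85 at an unadjusted p of 0.05. The 144 Ser2P-only genes had a median length of 34.1 kb and the 74 Ser5P-only genes 14.1 kb, against 16.7 kb for joint genes.

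Joint promoters, a class that made up 35.6% of all genes, went with most of the strongest 3′ windows of either single mark. Of the 8 strongest Ser5P-only 3′ windows, those of Pecr, H1f3, Wdr12, Trappc8 and Dusp6 lay at such genes. Of the 8 strongest Ser2P-only 3′ windows 7 did. They included Spag9, for a scaffold of JNK signalling (438 and 299 bp), Herc1, for a giant ubiquitin ligase (321 and 321 bp), Usp31 (408 and 418 bp), Cab39, for a partner of the kinase LKB1 (372 and 335 bp), and the CREB coactivator gene Crtc3 (469 and 435 bp). Crtc3 was Ser2P-only in the Myrlin KD libraries as well. Pcf11, for a termination factor that binds the Ser2-phosphorylated tail, had 552 and 258 bp of Ser2P past its own 3′ end and no Ser5P. Of the 144 genes, 39 were Ser2P-only and 0 Ser5P-only in the other line, where 2.05% of all genes were Ser2P-only.

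Ser5P-only 3′ windows included Pecr, a peroxisomal reductase gene (326 and 816 bp), Wdr12, for a ribosome assembly factor (351 and 631 bp), and Dusp6, a phosphatase gene of the ERK pathway (285 and 402 bp). Pecr and Wdr12 carried both marks in the Myrlin KD libraries. Of the 74 genes, 3 were Ser5P-only and 3 Ser2P-only there, where 0.180% of all genes were Ser5P-only and 3.84% joint. Among the listed genes with both marks downstream, at Rpl3, for a ribosomal protein, the 3′ window had 2434 and 2426 bp of Ser5P and 1439 and 1059 bp of Ser2P, and at Ldb1, for an erythroid cofactor, 325 and 366 bp of Ser5P and 1513 and 361 bp of Ser2P.

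Over promoter, interior and 3′ window together, 10297 of the 21535 genes (47.8%) had both marks in all libraries, 155 (0.720%) Ser5P alone and 127 (0.590%) Ser2P alone, and 8537 had no peak. An interior peak went with a promoter peak for both marks. Of the 7460 genes with a joint promoter and a tested interior, 27.7% also had a joint interior, against 14.4% of the 9479 genes with no promoter peak. The outer end of each RefSeq interval was taken as the 5′ end, so an internal start counts as interior: 12.4 and 11.5% of Ser5P and 9.66 and 12.8% of Ser2P interior summits lay near another listed start.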

How the data were processed

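The authors deposited 1 MACS2 narrowPeak list per library. The build was GRCm38/mm10 and the tools included MACS2 2.2.7.1 for peaks and Bowtie2 2.3.5 for alignment, with deepTools 3.3.1, Picard 2.21.4, SAMtools 1.9 and cutadapt 2.7, per the submitters' processing notes. Parameters were not given in the sources used here. Each deposited peak has a display score, a fold enrichment (a ratio), a −log10 p-value, a −log10 q-value and a summit offset. Fold was used only to rank peaks. Other sequences than the autosomes, X and Y were left out. Whole-number pileups were solved from fold and p for at least 99.9% of peaks, with a tolerance of 0.001 on −log10 p, and the modal background gave relative depth. Read totals were not used.

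Gene intervals came from RefSeq GRCm38.p6, with strands for 21535 of 21887 protein-coding genes from the RefSeq promoter table (17492) or GENCODE vM1 (3649 by symbol, 394 by synonym). A library marked a region or window where at least 1 bp was covered. 3′ windows touching another promoter window were left out. The covered share of windows was tested with limma 3.58.1 in R 4.3.3 (robust, Benjamini-Hochberg over all genes with cover) and on simulated data, where it recovered 200 of 200 genes shifted by 0.4 when the spread was 0.05. Other steps used Python 3.11.15 with scipy 1.17.1. Genes were named by rank: in each window the 8 Ser5P-only, 8 Ser2P-only and 6 joint genes with the highest smallest fold, at least 200 bp covered and the class kept at a −log10 q of at least 5 and at equal list length, plus list members, the latter also beyond the rule where a range is shown. Members and lists were chosen with earlier results of these data known. Replicate numbers did not pair the libraries.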

Additional observations from a re-analysis of the deposited data

Results flagged for a closer look

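Among the 1000 strongest peaks of each list, the interior share differed between marks in opposite directions in the 2 lines. In the control line it was 13.2 and 12.9% for Ser5P and 14.4 and 15.3% for Ser2P, a difference of -1.8 percentage points. In the Myrlin KD line it was 14 and 13.3% against 12.1 and 11.7%, a difference of 1.75. The pairs did not overlap in either line, and the difference between lines was not tested.

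Peaks on sequences other than the autosomes, X and Y were left out of every comparison. They numbered 27 and 28 in the control Ser5P lists and 26 and 24 in the control Ser2P lists.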

How the results depend on the processing

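The larger Ser2P shares of summits beyond 50 kb, in the last part of genes and past 3′ ends, the relative cover along long genes, the wider Ser5P peaks and the histone order (20 of 20) kept their direction in every alternative run for them: a −log10 q of at least 5, equal list length, thinning to the shallowest library, leaving out each library and, where they apply, other windows. Thinning dropped whole peaks and kept the extent of the rest. It therefore could not show how depth acts on peak width or on the bases a peak covers. For the share past 3′ ends the direction was kept at the stricter q, but the pairs of libraries overlapped there. Leaving out 1 library moved the difference in the last 10 kb of long genes between -81.1 and -61.0 percentage points. The promoter share difference turned to -0.425 at the stricter q and ranged from -2.94 to 5.10 over left-out libraries. The interior share difference ranged from -3.94 to 1.55 and the intergenic one from -0.424 to 1.14. The cause was not tested.

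Fewer libraries make single-mark classes easier to enter. Leaving out 1 library gave 1892 to 5345 Ser5P-only and 2038 to 8828 Ser2P-only regions, 247 to 792 and 174 to 360 promoters, 370 to 1069 and 436 to 975 interiors, and 96 to 339 and 216 to 731 3′ windows. The stricter q left 618 Ser2P-only regions, 132 Ser2P-only interiors, and 359 joint, 63 Ser2P-only and 66 Ser5P-only 3′ windows. A 3′ window of 1000 bp gave 213 joint, 47 Ser2P-only and 51 Ser5P-only genes. The order of the 3′ single-mark gene counts thus turned in both. limma without 1 library, with the lone sample assumed to vary like the other mark, called 0 to 50 interiors with more Ser5P and 0 to 696 with more Ser2P, and 0 to 303 and 0 to 762 3′ windows. At equal list length it called 1 interior with more Ser2P. Without a filter on cover the model could not be fitted.

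Same-numbered libraries did not deviate together (correlations -0.0452, -0.116 and -0.0177 in the 3 windows). With the replicate number as a block limma called 0 promoters and 0 interiors in either direction, and 15 3′ windows with more Ser5P and 6 with more Ser2P. With the 2 numbers crossed, added after seeing the data, it called 0 and 0 interiors.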
